A study of Mus musculus with 6 samples.

Results

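Transcripts of 8 genes of the apoptotic caspase machinery were examined in kidneys of cisplatin-treated mice. They were the caspases Casp2, Casp6, Casp8 and Casp9, the apoptosome parts Apaf1 and Cycs, the inhibitor Xiap and its antagonist Diablo. The genes were listed by name for their roles in apoptosis, with earlier results of these data known, and all 8 were found among the 54532 genes of the deposited tables and passed the filter on low counts. RNA had been sequenced from whole kidneys of 3 WT mice (WT1, WT2 and WT3) and 3 mice labelled TRPM2-KO (KO1, KO2 and KO4, here Trpm2-/-). All 6 animals were C57BL/6J mice, given as 6 to 8 weeks old by the labels (the text of the study gives a somewhat older range), and all had received cisplatin at 18 mg/kg 72 h before, so that every comparison is between genotypes under the drug and no untreated kidney was analysed here. The Trpm2-/- allele lacks 2 exons of the gene for a calcium-permeable cation channel. By the study's account, WT mice were bought from Shanghai SLAC Laboratory, and the Trpm2-/- line came from the University of Leeds. Its methods describe no shared litters, so genotype and source of the mice cannot be told apart.

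Caspases are proteases that lie idle as precursors and are switched on in a cascade. In the extrinsic route, ligand-bound death receptors recruit adaptors and caspase-8, which activates itself and then the effector caspases. In the intrinsic route, cytochrome c (Cycs), an electron carrier between complexes III and IV of the respiratory chain, leaves the mitochondrion and binds Apaf1, which assembles into the apoptosome and activates caspase-9. Xiap blocks caspase-9 and effector caspases, Diablo (Smac) leaves the mitochondrion to displace Xiap, caspase-2 is activated by the PIDDosome, and caspase-6 cleaves lamins as an effector. Cisplatin kills cells of the proximal tubule of the kidney by these routes, among others.

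Between genotypes, Casp8 and Apaf1 were higher in Trpm2-/- kidneys, by 1.57-fold and 1.75-fold. Xiap was 1.55-fold higher and without overlap between the genotypes, but did not pass the test after adjustment. Casp2, Casp6, Casp9, Cycs and Diablo did not pass it. A gene was called at a Benjamini-Hochberg adjusted p under 0.05 over the 15816 genes tested with edgeR's quasi-likelihood test. Of the 8 members, 2 were called higher in Trpm2-/- kidneys, where 4.74% of all genes tested were, and 0 were called lower, where 7.28% of all genes were. At an unadjusted p under 0.05, 3 members were higher and 1 was lower, and the DESeq2 Wald test called 3 higher and 0 lower. Of all 15816 genes tested, 4471 had an unadjusted edgeR p under 0.05 in either direction. DESeq2 called 1095 of all genes higher and 1444 lower. The median log2 fold change was 0.18 over the members and 0.02 over all genes tested. The criterion of the study's methods was a log2 fold change beyond 1 with a p under 0.05, here without adjustment. By it, 0 of the 8 members passed with edgeR, against 7.6% of all genes. With DESeq2 0 members passed, against 521 of all genes higher and 619 lower. Of the members, 4 had all Trpm2-/- kidneys above all WT kidneys, an order found in 16.7% of the genes tested, and 1 had all of them below, found in 16.8%.

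The promoters of the 2 called members and of Cycs are shown, since the first pair moved together and Cycs did not move with its partners in the respiratory chain. Each is the RefSeq sequence (GRCm38.p6) from 250 bases before to 50 bases after a transcript start, read 5′ to 3′ on the strand of the gene, and capitals mark matches to the short motifs searched. Casp8 is at chr1:58802252-58802551 on the plus strand, Apaf1 at chr10:91082694-91082993 on the minus strand and Cycs at chr6:50566520-50566819 on the minus strand.
Casp8: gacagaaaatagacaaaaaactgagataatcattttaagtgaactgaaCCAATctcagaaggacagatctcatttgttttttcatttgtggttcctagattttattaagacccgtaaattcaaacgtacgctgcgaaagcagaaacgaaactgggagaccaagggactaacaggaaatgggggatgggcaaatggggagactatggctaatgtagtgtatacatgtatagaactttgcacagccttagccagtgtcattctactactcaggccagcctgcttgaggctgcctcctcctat
Apaf1: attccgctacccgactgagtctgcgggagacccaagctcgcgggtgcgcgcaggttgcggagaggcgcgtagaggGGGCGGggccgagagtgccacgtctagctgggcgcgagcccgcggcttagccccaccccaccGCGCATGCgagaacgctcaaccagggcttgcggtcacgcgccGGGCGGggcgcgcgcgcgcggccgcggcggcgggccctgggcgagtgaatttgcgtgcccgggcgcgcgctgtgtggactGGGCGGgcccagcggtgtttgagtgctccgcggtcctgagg
Cycs: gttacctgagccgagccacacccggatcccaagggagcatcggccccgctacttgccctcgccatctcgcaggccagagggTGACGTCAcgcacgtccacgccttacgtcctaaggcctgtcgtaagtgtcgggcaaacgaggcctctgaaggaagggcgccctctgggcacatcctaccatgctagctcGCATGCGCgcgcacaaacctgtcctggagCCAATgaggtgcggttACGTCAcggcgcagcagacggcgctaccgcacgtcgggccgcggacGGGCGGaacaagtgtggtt
Both strands were searched for 7 motifs, which were chosen after these promoters were seen. The Cycs promoter held a full cyclic AMP response element (TGACGTCA), found in 1.79% of 32851 mouse promoters of the same length, at position -169 counted from the first transcribed base as 0. It also held the core of the NRF1 motif (GCATGCGC, in 2.71% of promoters), a match to the shorter CRE core (TGACGT, in 7.51%) at -15, apart from the 2 that lie inside the full element, a CCAAT box (CCAAT, in 37.4%) and a GC box (GGGCGG, in 35.7%). The Apaf1 promoter held 3 GC boxes and 1 NRF1 core. The Casp8 promoter held 1 CCAAT box and no other of the motifs, which included an E2F motif (TTTNNCGC, in 5.17%) and a TATA box (TATAAA, in 13.6%). Base composition set the promoters apart more plainly, with 42% G and C and 5 CpG in Casp8, against 74.7% and 46 in Apaf1 and 65% and 32 in Cycs, where the median promoter had 52.7% and 7. The Casp8 start used by RefSeq lies inside the gene as the deposited table places it (chr1:58795374-58847503). Motif matches are matches of letters and not measured binding.

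Caspase-8, the initiator of the death receptor route, was the member with the smallest p. Its level in CPM (counts scaled to the normalised library size) was 62.0, 71.4 and 66.4 in WT1, WT2 and WT3 and 107, 108 and 98.9 in KO1, KO2 and KO4. The lowest Trpm2-/- kidney stood well above the highest WT kidney, and the spread within each genotype was small (66.6 ± 4.71 against 105 ± 5.18 CPM, SD, n = 3 each). The log2 fold change was 0.65 (SE 0.121, 95% interval 0.383 to 0.927, edgeR adjusted p = 0.00947). Without WT3 the difference was of the same size (0.65) with an adjusted p of 0.0660, and it remained called without any of the other 5 mice.

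Apaf1, the scaffold of the apoptosome, showed the largest fold change of the 8. Its CPM were 20.4, 19.98 and 20.8 in WT1, WT2 and WT3 and 43.0, 34.0 and 30.3 in KO1, KO2 and KO4. The WT kidneys were almost equal (20.4 ± 0.407, SD, n = 3), while the Trpm2-/- kidneys were all higher and differed more among themselves (35.8 ± 6.54). The log2 fold change was 0.81 (SE 0.158, 95% interval 0.456 to 1.17, edgeR adjusted p = 0.0120). The adjusted p was 0.0622 without WT2 and 0.0564 without WT3, with log2 fold changes of 0.79 and 0.82. Apaf1 is on the minus strand of chromosome 10 (chr10:90989311-91082770), and its exons overlap no other annotated gene.

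Caspase-9, which the apoptosome activates, did not follow its scaffold. Its CPM were 30.3, 28.9 and 30.3 in WT1, WT2 and WT3 and 34.6, 30.3 and 29.6 in KO1, KO2 and KO4, so that the genotypes overlapped. The log2 fold change was 0.08, with a 95% interval from -0.21 to 0.368 (edgeR adjusted p = 0.739), an interval that does not reach the fold change of Apaf1. Within each mouse, the ratio of Apaf1 to Casp9 in FPKM (fragments scaled to gene length and library size) was 0.387, 0.398 and 0.395 in the WT kidneys and 0.715, 0.646 and 0.589 in the Trpm2-/- kidneys. Every Trpm2-/- ratio was above every WT ratio, by 0.72 on the log2 scale (1.65-fold, two-sided exact permutation p = 0.1, the smallest that 3 against 3 mice allow).

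Cytochrome c (Cycs) was by far the most abundant of the members per gene length. Its CPM were 318, 403 and 343 in WT1, WT2 and WT3 and 434, 419 and 273 in KO1, KO2 and KO4. The highest and the lowest of the 6 values were both from Trpm2-/- kidneys. On the log2 scale the genotypes differed by 0.08 (SE 0.194, 95% interval -0.354 to 0.516, edgeR adjusted p = 0.826), and its sign turned to -0.04 without KO1 and to -0.01 without KO2. Of the 75-base stretches of the Cycs transcripts, 23.9% also occur in transcripts of 5 other annotated genes, all predicted gene models. Reads from these stretches could be assigned to another gene or dropped, depending on the authors' counting.

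Xiap, the inhibitor of caspase-9 and of effector caspases, had CPM of 69.4, 58.3 and 64.0 in WT1, WT2 and WT3 and of 132, 88.8 and 76.1 in KO1, KO2 and KO4. All Trpm2-/- kidneys were above all WT kidneys, and KO1 stood far above the other two. This came to a log2 fold change of 0.63 (SE 0.198, 95% interval 0.188 to 1.08), and in edgeR's quasi-likelihood test the adjusted p was 0.0688, from 0.0102 before adjustment. The log2 fold change was 0.37 without KO1 (edgeR adjusted p = 0.135) and 0.80 without KO4 (edgeR adjusted p = 0.0302). Of the fits that left out 1 mouse, only the fit without KO4 called Xiap. Xiap is on the X chromosome (chrX:42059679-42109656).

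Diablo, the antagonist of Xiap, was the least abundant of the members per gene length, taken over all annotated exonic bases. Its CPM were 10.4, 13.1 and 13.4 in WT1, WT2 and WT3 and 9.12, 14.3 and 10.5 in KO1, KO2 and KO4, with the genotypes mixed. Trpm2-/- kidneys differed from WT by -0.12 on the log2 scale (SE 0.223, 95% interval -0.62 to 0.379, edgeR adjusted p = 0.771), and it was 0.01 without KO1. Of its exonic bases, 40.9% overlap other annotated genes, among them B3gnt4 on the opposite strand, which had 0 reads in every library, and the gene model Gm49027 on the same strand, which had 1 to 9 reads. A further opposite-strand model, AC157931.1, covers 1.98% of them and had 68, 87 and 46 reads in WT1, WT2 and WT3 and 22, 40 and 59 in KO1, KO2 and KO4, against 149 to 218 reads for Diablo, and whether any reads were shared was not tested. The Xiap to Diablo ratio in FPKM was 4.36, 2.90 and 3.12 in the WT kidneys and 9.44, 4.03 and 4.74 in the Trpm2-/- kidneys. WT1 lay above KO2, so the ratios overlapped, and the difference of 0.73 on the log2 scale (SD 0.314 in WT and 0.652 in Trpm2-/- kidneys) had a two-sided exact permutation p of 0.2. It was 0.36 without KO1.

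Caspase-2 and caspase-6 moved in opposite directions by small amounts, and neither was called. Casp2 had CPM of 20.8, 21.9 and 20.7 in WT1, WT2 and WT3 and of 27.8, 22.7 and 26.1 in KO1, KO2 and KO4. All Trpm2-/- values were above the WT values, KO2 by little, and the log2 fold change was 0.27 (95% interval of -0.0468 to 0.592, edgeR adjusted p = 0.246). Casp6 had CPM of 22.8, 22.6 and 22.7 in the WT kidneys and of 19.3, 18.0 and 17.1 in KO1, KO2 and KO4. The WT values of Casp6 were nearly identical (22.7 ± 0.106, SD, n = 3) and all Trpm2-/- values were lower. Its log2 fold change was -0.32 (95% interval -0.638 to -0.00787), with an edgeR p of 0.0455 before and 0.167 after adjustment.

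**Figure D1:**
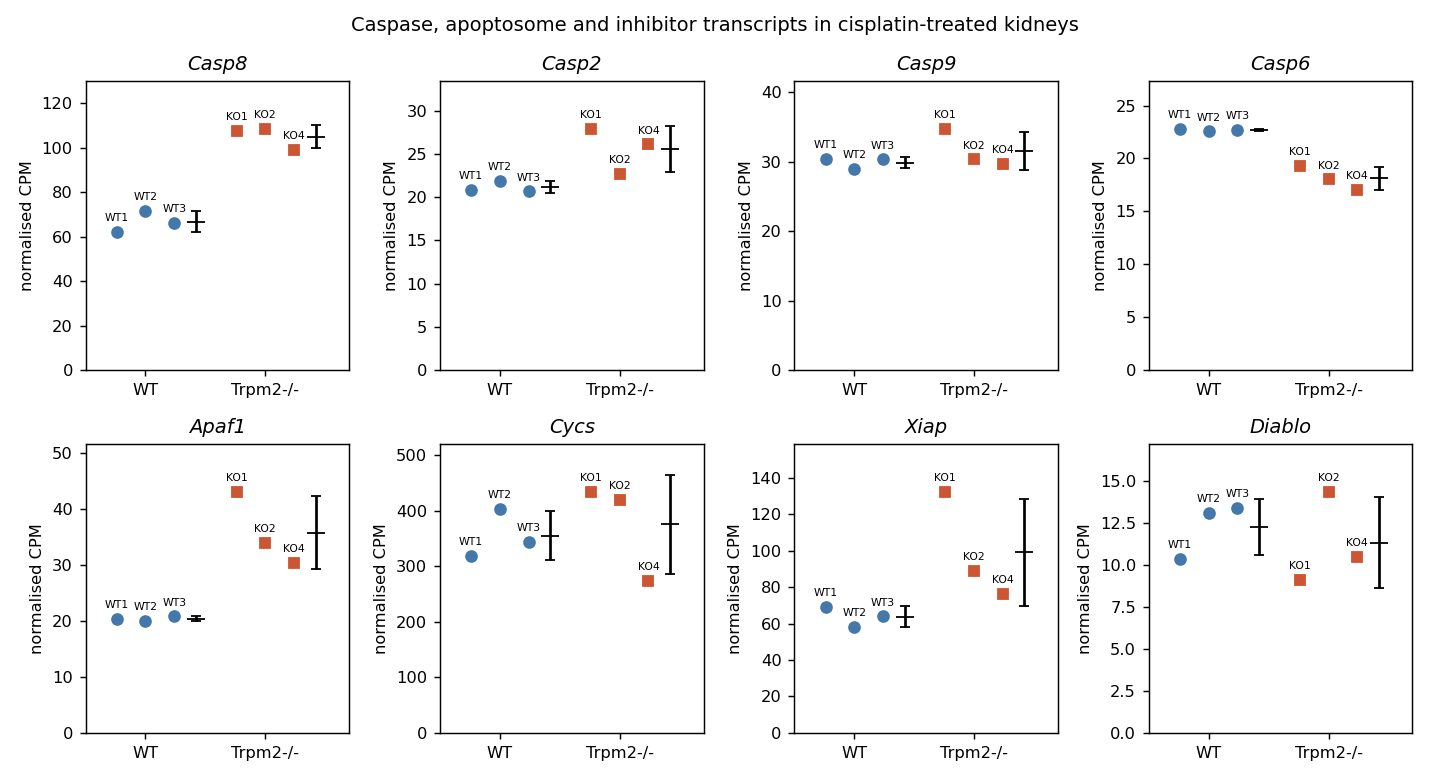
Normalised CPM (vertical axes, from 0) of the 8 members in each mouse, with WT kidneys as circles and Trpm2-/- kidneys as squares, and the mean ± SD of 3 mice in black. Casp8, Apaf1, Xiap and Casp2 have every Trpm2-/- kidney above every WT kidney, Casp6 has every one below, and the genotypes overlap for Casp9, Cycs and Diablo.

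Levels can be compared between genes only per gene length, and FPKM values were used for this. The deposited gene length counts all annotated exonic bases, whether or not they are expressed in kidney. For Diablo it was 6166 bases, 40.9% of them overlapping other genes, against 2893 for Casp8. How far this length sets the order of genes was not tested. In WT kidneys Cycs had the highest FPKM (91.1 ± 11.3, SD, n = 3), followed by Casp8 (20.1 ± 1.41), Xiap (5.90 ± 0.517), Casp9 (5.02 ± 0.136), Casp6 (3.55 ± 0.0205), Casp2 (2.62 ± 0.0857), Apaf1 (1.98 ± 0.0361) and Diablo (1.74 ± 0.233). No neighbours in this order overlapped between WT mice, though the lowest Apaf1 value (1.94) was only just above the highest Diablo value (1.89). In Trpm2-/- kidneys the first 4 genes and Diablo kept their places, and Apaf1 rose from rank 7 to rank 5 (3.49 ± 0.63), above Casp2 (3.19 ± 0.339) and Casp6 (2.86 ± 0.166). The Apaf1 and Casp2 values overlapped there, as did those of Casp2 and Casp6, so the order among these 3 is not fixed in Trpm2-/- kidneys.

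**Figure D2:**
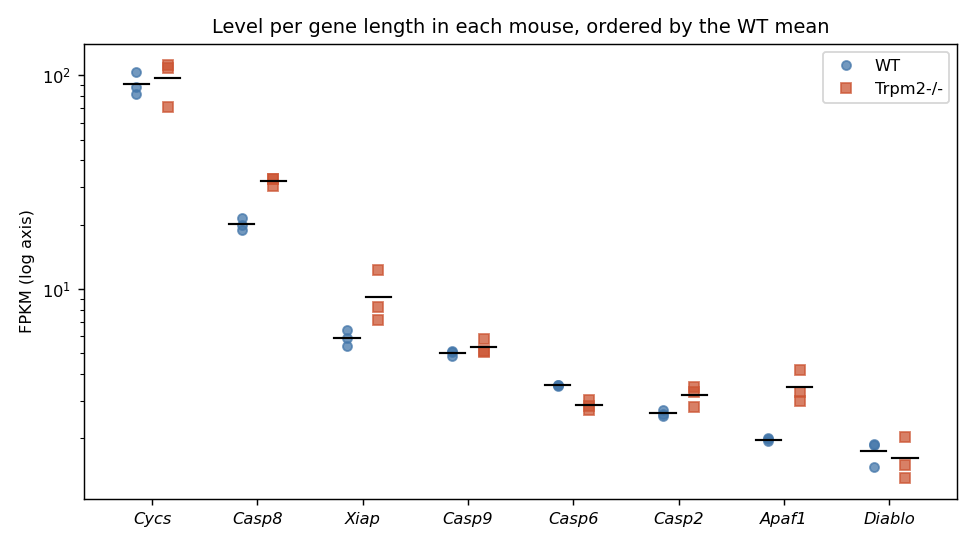
FPKM of each member in each mouse on a log axis, ordered from left to right by the WT mean, with circles for WT, squares for Trpm2-/- and black bars for the mean of 3 mice. Cycs is highest in both genotypes, at 91.1 in WT and 97.1 in Trpm2-/- kidneys, and Apaf1 passes Casp2 and Casp6 in the Trpm2-/- kidneys.

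Lists of the genes that surround the members in these routes were compared in the same fit. For these and the later lists, the shares over all genes tested were 4.74% called higher and 7.28% called lower. In the death receptor and caspase-8 list, 12 of 13 genes were tested, 2 were called higher and 0 lower, with a median log2 fold change of 0.04. At an unadjusted p under 0.05, 2 genes of this list were lower, and DESeq2 called 0 lower. Tnfrsf10b, the mouse receptor for the death ligand TRAIL, had CPM of 31.8, 28.0 and 28.4 in WT1, WT2 and WT3 and of 48.8, 48.3 and 50.5 in KO1, KO2 and KO4. Its 2 ranges were far apart (log2 fold change 0.74, SE 0.122, edgeR adjusted p = 0.00578). Casp8ap2, which binds caspase-8 and is also a nuclear protein of histone gene expression, had CPM of 7.71, 8.03 and 6.50 in the WT kidneys and of 12.1, 11.7 and 12.2 in the Trpm2-/- kidneys (log2 fold change 0.70, SE 0.191, edgeR adjusted p = 0.0434). The Casp8ap2 call was lost when any 1 of the 6 mice was left out, with log2 fold changes of 0.61 to 0.76 and adjusted p of 0.0640 to 0.206. Bid, the substrate through which caspase-8 reaches the mitochondrion, had a mean of 61.2 CPM in WT and 48.1 in Trpm2-/- kidneys (log2 fold change -0.35, edgeR adjusted p = 0.103). Its Trpm2-/- values were all below its WT values, as were those of 16.8% of the genes tested.

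Cflar encodes the decoy that competes with caspase-8 for its adaptor, and it was not called (182 ± 3.39 CPM in WT and 226 ± 38.1 in Trpm2-/- kidneys, SD, n = 3, log2 fold change 0.31, edgeR adjusted p = 0.206). Its log2 fold change was 0.18 without KO1. The ratio of Cflar to Casp8 in FPKM was 0.676, 0.589 and 0.613 in the WT kidneys and 0.562, 0.472 and 0.435 in KO1, KO2 and KO4. All Trpm2-/- ratios lay below all WT ratios, the nearest pair being WT2 and KO1. The difference was -0.36 on the log2 scale (two-sided exact permutation p = 0.1, the smallest possible).

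Of the PIDDosome and apoptosome regulators, 9 of 11 genes were tested and 0 were called in either direction by edgeR or DESeq2, with 2 genes lower and 0 higher at an unadjusted edgeR p under 0.05. Their median log2 fold change was -0.16. Aven, an inhibitor of Apaf1 assembly, had a mean of 17.8 CPM in WT and 12.7 in Trpm2-/- kidneys (log2 fold change -0.49, edgeR adjusted p = 0.0970). Anp32a, which promotes apoptosome assembly, had 134 and 106 CPM (log2 fold change -0.34, edgeR adjusted p = 0.107). Cradd, the adaptor that joins caspase-2 to the PIDDosome, had 12.9 and 9.30 CPM (log2 fold change -0.47, edgeR adjusted p = 0.201, and -0.30 as the log2 fold change without KO4). All 3, named for the smallest p of their list, had every Trpm2-/- kidney below every WT kidney. That order was found in 16.8% of the genes tested.

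Of the inhibitor of apoptosis (IAP) genes and their antagonists other than Xiap and Diablo, 12 of 13 were tested, 1 was called higher and 0 lower, and 10 had a log2 fold change above 0 (median 0.40). At an unadjusted edgeR p under 0.05, 4 of them were higher and 0 lower, and DESeq2 called 2 higher and 0 lower. Birc3 encodes cIAP2, a ubiquitin ligase that acts at receptor complexes. It had CPM of 38.0, 47.2 and 33.2 in WT1, WT2 and WT3 and of 102, 76.4 and 69.5 in KO1, KO2 and KO4. The lowest Trpm2-/- kidney was well above the highest WT kidney (log2 fold change 1.07, SE 0.186, edgeR adjusted p = 0.00740). The related ligase gene Birc2 (cIAP1) rested just outside the threshold, with means of 93.2 ± 5.80 and 124 ± 4.92 CPM (SD, n = 3, log2 fold change 0.41, edgeR adjusted p = 0.0521, and 0.0211 with DESeq2), and Birc6, a large IAP with ubiquitin-conjugating activity, had 65.6 and 89.2 CPM (log2 fold change 0.44, edgeR adjusted p = 0.132). For Birc6 it was 0.28 without KO1 (adjusted p = 0.316) and 0.59 without KO2 (adjusted p = 0.0419).

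Among the execution targets and nucleases, 15 of 15 genes were tested, 2 were called lower and 0 higher, and the median log2 fold change was 0.08. At an unadjusted edgeR p under 0.05, 2 were higher, and DESeq2 called 0 higher. Both called genes encode mitochondrial proteins linked to DNA breakdown after their release. Endog, a mitochondrial nuclease, had CPM of 36.3, 46.3 and 45.3 in WT1, WT2 and WT3 and of 17.8, 15.7 and 19.7 in KO1, KO2 and KO4, so that the highest Trpm2-/- kidney was far below the lowest WT kidney (log2 fold change -1.26, SE 0.155, edgeR adjusted p = 0.00217). Aifm1, the apoptosis-inducing factor, which also serves assembly of the respiratory chain, had CPM of 111, 116 and 125 in the WT kidneys and of 66.7, 67.4 and 62.9 in the Trpm2-/- kidneys (log2 fold change -0.84, SE 0.119, edgeR adjusted p = 0.00359). Pak2, a kinase that caspases cleave, had means of 93.6 and 129 CPM (log2 fold change 0.47, edgeR adjusted p = 0.0985), and a log2 fold change of 0.28 without KO1 (161 CPM, against 119 and 108 in KO2 and KO4).

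The list of other caspases held inflammatory and epidermal family members, all of them low. Of 4 genes, 3 were tested and 0 were called by edgeR or DESeq2, with 1 higher and 0 lower at an unadjusted edgeR p under 0.05. Casp14, known from the epidermis, had a mean of 1.62 CPM in WT and 2.80 in Trpm2-/- kidneys (log2 fold change 0.79, edgeR adjusted p = 0.172). The inflammatory caspase gene Casp4 had 3.76 and 4.95 CPM (log2 fold change 0.40, edgeR adjusted p = 0.450), and Casp12 had 1.18 and 1.60 CPM (log2 fold change 0.43, edgeR adjusted p = 0.636). Without KO4 the log2 fold change of Casp4 was 0.19 and that of Casp12 turned to -0.24, and for these low genes it also moved by over 1.5 times without KO2 (0.61 and 0.74) and, for Casp12, without WT2 (0.24) or WT3 (0.75).

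**Figure D3:**
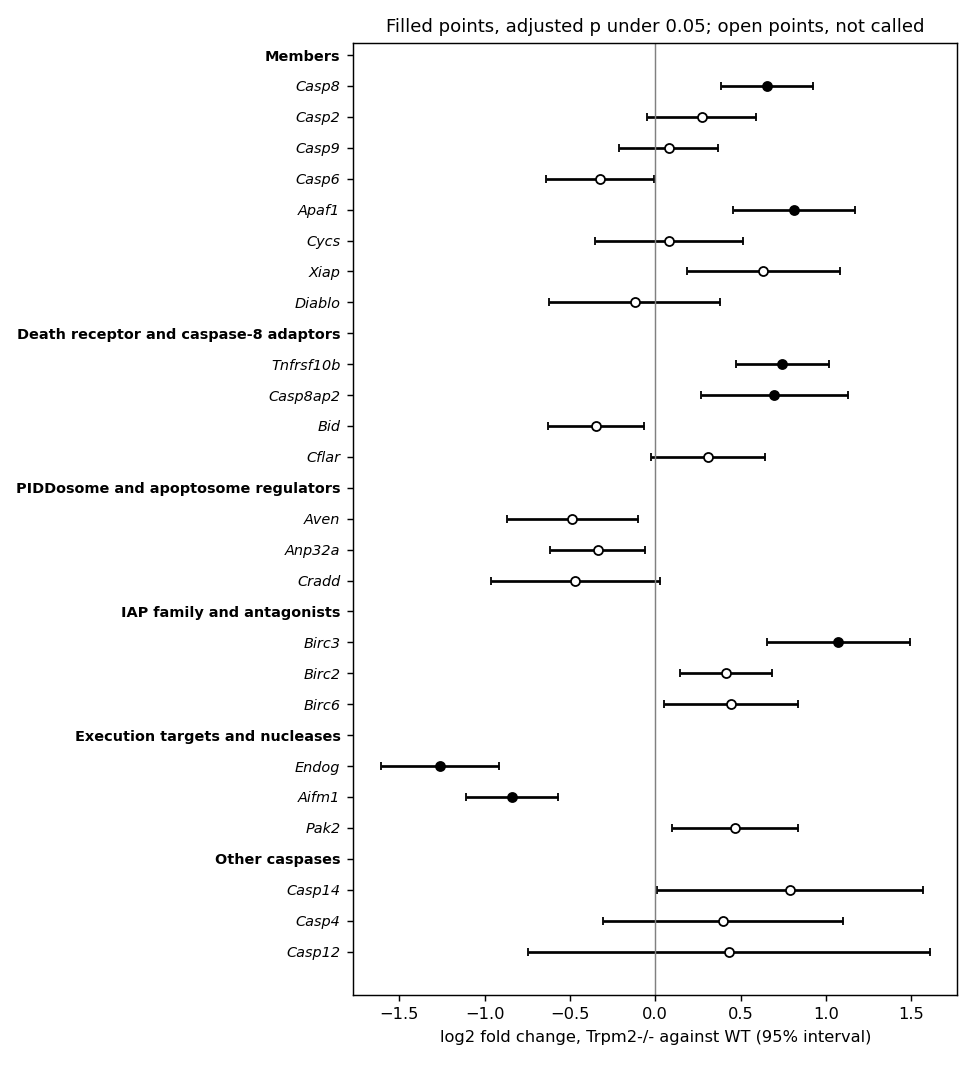
The log2 fold change of Trpm2-/- against WT kidneys (horizontal axis) with its 95% interval for the 8 members and for the genes named from 5 lists, in edgeR with 3 mice per genotype. Filled points passed an adjusted p under 0.05: Casp8, Apaf1, Tnfrsf10b, Casp8ap2 and Birc3 to the right of 0, and Endog and Aifm1 to the left.

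Cycs was compared with the nuclear genes of the 2 complexes between which cytochrome c carries electrons. All 20 subunit genes tested had a log2 fold change below 0, between -1.47 and -0.55, and 15 of the 20 were called lower in Trpm2-/- kidneys, 6 of 9 in complex III and 9 of 11 in complex IV. None of the 20 was called higher or reached an unadjusted p under 0.05 in that direction in edgeR, and DESeq2 called 20 of the 20 lower and 0 higher. The number called lower was 6 without WT2, 3 without WT3 and 9 without KO1, while all 20 values stayed below 0 without any 1 mouse. The median log2 fold change was -0.80 in complex III and -0.81 in complex IV. The lower end of the 95% interval of Cycs, -0.354, was above the point estimate of every one of these subunits. The intervals of some subunits reach higher, up to -0.169 for Uqcrc2. Apart from the ratio to Cyc1, Cycs was not tested against them.

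Cyc1, the cytochrome c1 of complex III that hands electrons to cytochrome c, had CPM of 437, 492 and 464 in WT1, WT2 and WT3 and of 277, 291 and 267 in KO1, KO2 and KO4 (log2 fold change -0.74, SE 0.130, edgeR adjusted p = 0.00756). Uqcrc1, a core subunit, had a log2 fold change of -0.77 (edgeR adjusted p = 0.00795), and Uqcrfs1, the Rieske iron-sulfur protein, of -0.93 (edgeR adjusted p = 0.00738). In complex IV, Cox7a2 had -0.95, Cox6b1 -0.94 and Cox5a -0.69 (edgeR adjusted p = 0.00802, 0.0105 and 0.0145). All 6 of these genes, named for the smallest p of their lists, had every Trpm2-/- kidney below every WT kidney. That order was found in 16.8% of the genes tested. Without WT3 the adjusted p was 0.0538 for Uqcrc1, 0.0531 for Cox6b1 and 0.0757 for Cox5a, and without WT2 it was 0.0541 for Cox6b1 and 0.0822 for Cox5a. The ratio of Cycs to Cyc1 in FPKM was 0.460, 0.519 and 0.467 in the WT kidneys and 0.992, 0.912 and 0.648 in KO1, KO2 and KO4. Every Trpm2-/- ratio was above every WT ratio, with KO4 the nearest, and the difference was 0.80 on the log2 scale (1.74-fold, two-sided exact permutation p = 0.1, the smallest possible).

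**Figure D4:**
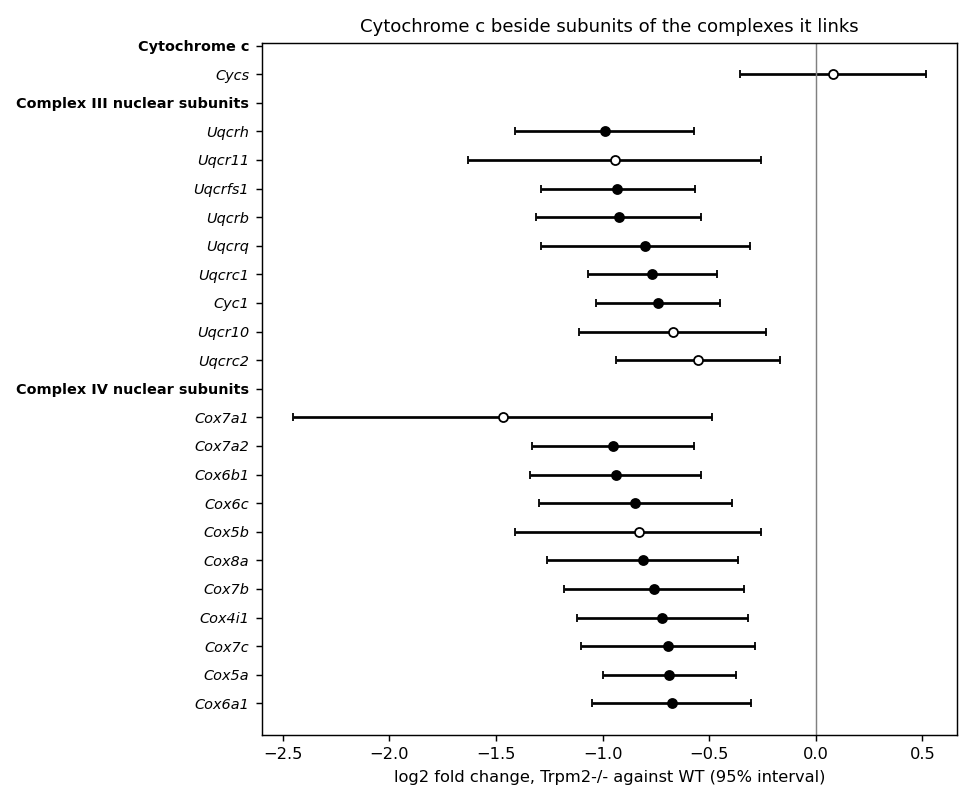
The log2 fold change of Trpm2-/- against WT kidneys (horizontal axis) with its 95% interval for Cycs and for 20 nuclear subunit genes of respiratory complexes III and IV, in edgeR with 3 mice per genotype, with filled points for an adjusted p under 0.05. Cycs lies at 0.08 with an interval across 0, and the 20 subunits lie between -1.47 and -0.55.

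**Figure D5:**
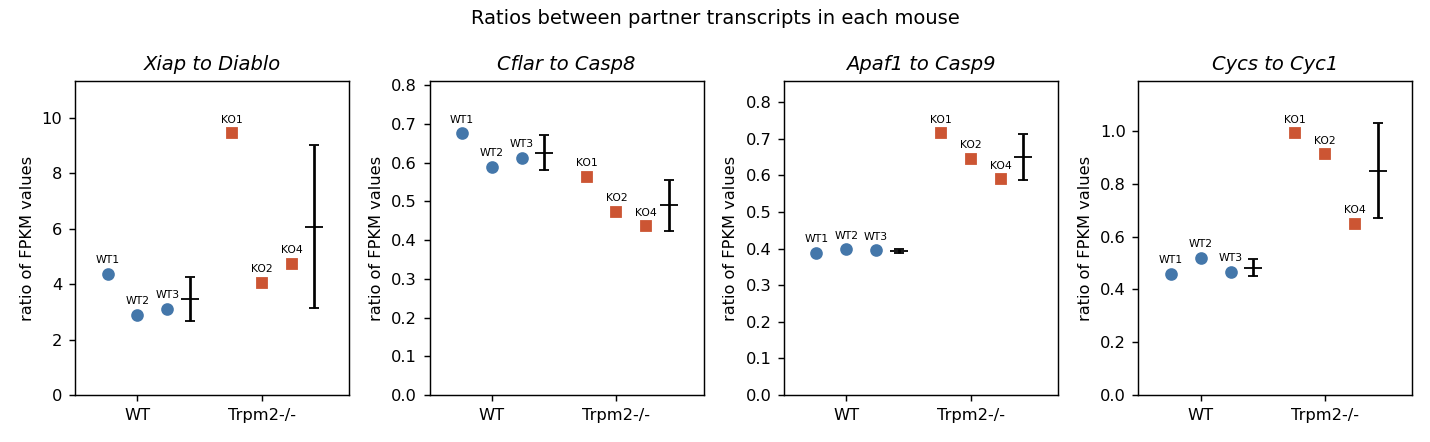
Ratios of FPKM values between partner transcripts in each mouse (vertical axes, from 0), with WT as circles, Trpm2-/- as squares and the mean ± SD of 3 mice in black. The genotypes do not overlap for Cflar to Casp8, Apaf1 to Casp9 and Cycs to Cyc1, and they overlap for Xiap to Diablo.

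The genes whose pattern over the 6 kidneys was most like that of Casp8 were Aloxe3, an epidermal lipoxygenase (Pearson r of log2 CPM 0.9987), Prc1, a protein of the mitotic spindle midzone (0.9941), and Ccp110, a centriole protein (0.9914). Genes with predicted names of the Gm and Rik types were left out of this comparison. The 6 points form 2 groups by genotype, so any gene with a like shift and small spread scores high, and 118 of 13660 genes had an r above 0.95. Aloxe3 and Ccp110 were called higher in Trpm2-/- kidneys (log2 fold changes of 1.38 and 0.76, edgeR adjusted p = 0.0127 and 0.00549), (Aloxe3 with an adjusted p of 0.0642 without WT3), and Prc1 had a log2 fold change of 0.77 with an edgeR adjusted p of 0.111.

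Library and tissue measures moved with genotype too, and their part in these results was not tested. The libraries held 14053307 to 17150089 counts. Trpm2 itself had 5, 5 and 27 reads in WT1, WT2 and WT3 and 10, 16 and 20 in KO1, KO2 and KO4, but reads of the exons that the allele retains are included, so these values check neither the deletion nor the labels. The mitochondrial genome took 4.43% to 4.72% of counts in WT and 7.91% to 11.04% in Trpm2-/- kidneys. All 10 proximal tubule markers were called lower (6 without WT2 or WT3), and their summed level was 3019 to 3889 CPM in WT and 724 to 1267 in Trpm2-/- kidneys. In a whole kidney, fewer cells of a type and less RNA per cell cannot be told apart. Of 10 markers of other nephron segments 3 were called lower, and 1 or 2 without any 1 mouse (summed 2230 to 3452 against 1008 to 1971 CPM), and of 6 injury markers 1 was called higher, and 0 without WT3 (2720 to 3315 against 3603 to 4443 CPM). None of 8 immune markers tested (of 13) was called by edgeR or DESeq2, 1 was higher at an unadjusted p under 0.05, and their sum was 96.9 to 102 against 81.9 to 104 CPM. The T cell marker Cd3e had no read in 3 libraries. Of 6 endothelial markers 0 were called by edgeR or DESeq2 and 0 reached an unadjusted p under 0.05 (85.2 to 123 against 54.5 to 201 CPM). Of 6 fibroblast markers 1 was called higher (53.9 to 79.3 against 56.3 to 144 CPM). The top of both ranges was KO4. No fibroblast marker was called higher without WT1, WT2, KO1 or KO4. Without KO4, 2 endothelial markers and 1 fibroblast marker were called lower, and the members called were Casp8, Apaf1 and Xiap, all higher.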

How the data were processed

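RNA-seq of whole kidneys from 3 WT and 3 Trpm2-/- mice was used. The authors deposited whole-number read counts per gene without normalization, and FPKM values that they made from counts, gene length and a library total. The submitters' processing notes name HISAT2, StringTie and build mm9, without versions or roles. The deposited positions of the members equal those of GRCm38, which were used. Strandedness is not given in the sources used here, so reads of overlapping genes may be shared.

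Counts were analysed with edgeR 4.0.16 in R 4.3.3 (filterByExpr, TMM, quasi-likelihood test on genotype, Benjamini-Hochberg over 15816 genes, called at an adjusted p under 0.05). SE was taken as the absolute log2 fold change over the root of the F statistic. Ratios used FPKM and two-sided exact permutation tests (scipy 1.17.1). Totals per library were 14053307 to 17150089 counts. Replicates differed by more than sampling noise (chi-square per degree of freedom of 14.7 or more). P-values measure the spread between these mice.

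Members and lists were chosen with earlier results of these data known. Named genes are the members, up to 3 genes per pathway list with the smallest p at a mean of 1 CPM or more, the partner genes of the ratios, and the 3 genes most like Casp8. Cd3e, Trpm2, Tnfsf10, B3gnt4, Gm49027 and AC157931.1 were named outside this rule, after their values were seen. Effector caspases other than caspase-6 are not analysed here. Alternatives were the DESeq2 1.42.0 Wald test, its size factors or upper quartile scaling in edgeR, other minimum levels, limma 3.58.1 on log2(FPKM + 1) and log2(FPKM + 0.1), omission of the mitochondrial genome, a replicate block, and omission of each mouse. Fits with edgeR, DESeq2 and limma were checked on simulated counts with 4-fold changes. Changes of the size seen in the members were not simulated there.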

Additional observations from a re-analysis of the deposited data

How the results depend on the processing

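Of 304 values recomputed under 17 alternatives, 260 stayed the same by rules that differed with the kind of value. Fold changes had to keep their direction and their side of the threshold. Counts had to stay within 1.5 times, and a count that stayed at 0 was included. Log2 ratios had to keep their sign and move by less than the larger SD within a genotype. Casp2, Casp6 and Casp9 stayed uncalled with the same sign under all alternatives run for them. The log2 fold change of Cycs turned to -0.0382 without KO1 and -0.00661 without KO2 (up to 0.276 without KO4), and that of Diablo to 0.0108 without KO1 (down to -0.329 without KO2). Apaf1 had an adjusted p of 0.0537 in limma on log2(FPKM + 1) and 0.0989 there without a filter. In each of these fits 1 member was called higher, and the log2 fold change of Apaf1 was 0.585. In limma on log2(FPKM + 0.1) Apaf1 had a log2 fold change of 0.777 and an adjusted p of 0.0457. Why its call was lost was not tested. Xiap was called under upper quartile scaling (adjusted p = 0.0484), without a filter on low counts (0.00271) and by DESeq2 (0.0274). No limma fit called it. The limma adjusted p was 0.151 on log2(FPKM + 1), 0.234 there without a filter and 0.14 on log2(FPKM + 0.1). Casp8ap2 was not called without a filter on low counts or in any limma fit. Tnfsf10 was called lower in edgeR without a filter on low counts.

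Genes called higher and lower, 750 and 1152, became 304 and 754 in limma on log2(FPKM + 1), 105 and 405 there without a filter, 338 higher in limma on log2(FPKM + 0.1), and 1262 higher in edgeR without a filter. Genes past the methods' threshold, 553 higher and 649 lower, became 117 and 398 in limma on log2(FPKM + 1), 110 and 390 there without a filter, and 1073 higher in edgeR without a filter. Pathway genes called lower, 17, became 10 in limma with either pseudocount and 4 without a filter, where those called higher fell from 3 to 1. The causes were not tested.

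When 1 mouse was left out, which also leaves fewer samples, 160 to 819 genes were called higher and 470 to 1240 lower, 476 to 743 and 538 to 863 were past the methods' threshold, 0 to 3 members were called higher, and 2 to 3 pathway genes were called higher and 5 to 21 lower. The log2 ratios then ranged from 0.36 to 0.98 for Xiap to Diablo, -0.46 to -0.28 for Cflar to Casp8, 0.65 to 0.79 for Apaf1 to Casp9 and 0.68 to 0.98 for Cycs to Cyc1.

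Replicate numbers 1 and 2 occur in both genotypes. Deviations from the genotype mean correlated between same-numbered mice at r of 0.096 and -0.00275, against -0.291 to 0.244 between unlike-numbered mice. With so few mice these values cannot tell whether same-numbered mice share a batch. With the replicate block, 341 genes were called higher and 661 lower, 1 pathway gene higher and 7 lower, and Casp8, Apaf1 and Xiap (adjusted p = 0.0477, 0.0258 and 0.0362) among the members. Tnfrsf10b was not called with this block (edgeR adjusted p = 0.0523). The log2 ratios within the same-numbered pairs were 0.80, -0.29, 0.79 and 0.96, in the order above.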
